A study of Caenorhabditis elegans with 6 samples.

Results

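The miRNA genes cel-mir-4807, cel-mir-4808, cel-mir-4809, cel-mir-2220, cel-mir-4810b, cel-mir-4810a, cel-mir-1018 and cel-mir-4923b form a cluster on the X chromosome of Caenorhabditis elegans. They are 8 of the 253 miRNA genes in the count files, and all 8 had reads in every library. The members were taken by name, as a group chosen from earlier values of these libraries in which they were higher in male than in hermaphrodite gonads. Their differences between the sexes are therefore given as a description, with no p-value, and where a fit across all miRNAs calls them the call is not evidence about them. Small RNA was sequenced from gonads of adult wild-type worms of the N2 strain, 3 libraries being male and 3 hermaphrodite. All libraries share the N2 genotype, and no other allele or agent is given. The labels name the cell type as germline, although a dissected gonad also holds somatic gonad cells, and they do not give the number of animals per library. The stated purpose was to list the miRNAs of the gonads and to find those enriched in males.

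A miRNA is a short RNA cut from a hairpin, which guides an Argonaute protein to matching messenger RNAs and lowers their output. Most hairpins are released from a long primary transcript by the nuclease Drosha and then cut by Dicer. In a mirtron, first described in flies and worms, the hairpin is a whole short intron, so that splicing and debranching take the place of the Drosha cut. In the worm germline the X chromosome is largely kept silent, and males carry a single X where hermaphrodites carry a pair. Male gonads produce sperm for life, whereas hermaphrodite gonads make sperm first and then switch to oocytes.

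The label of the cluster held in the annotation. In WBcel235 (Ensembl release 115), matched by name, all 8 members lie on the plus strand of X inside the non-coding RNA gene Y59E1B.1, within 7233 bases. That assembly differs in name from the ce10 build of the count files, so distances but no coordinates are given. The host has 35 exons and 34 introns over 9094 bases. Each member filled an intron of the host exactly, from its first to its last base, which is the arrangement of a mirtron. In order along the host, cel-mir-4807 is intron 3, cel-mir-4808 intron 6, cel-mir-4809 intron 10, cel-mir-2220 intron 11, cel-mir-4810b intron 12, cel-mir-4810a intron 20, cel-mir-1018 intron 27 and cel-mir-4923b intron 29. Hence cel-mir-4809, cel-mir-2220 and cel-mir-4810b sit in consecutive introns, 122 and 131 bases apart. An arm annotated at the 3′ side, of 22 or 23 bases (21 for cel-mir-4808), ended at the last base of the intron in all 8 members. An arm at the 5′ side was annotated for 4 members, cel-mir-4808, cel-mir-4809, cel-mir-2220 and cel-mir-4810b, and began at the first base of the intron in each. The count files have 1 row per hairpin, so the reads of the arms cannot be separated.

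**Figure D1:**
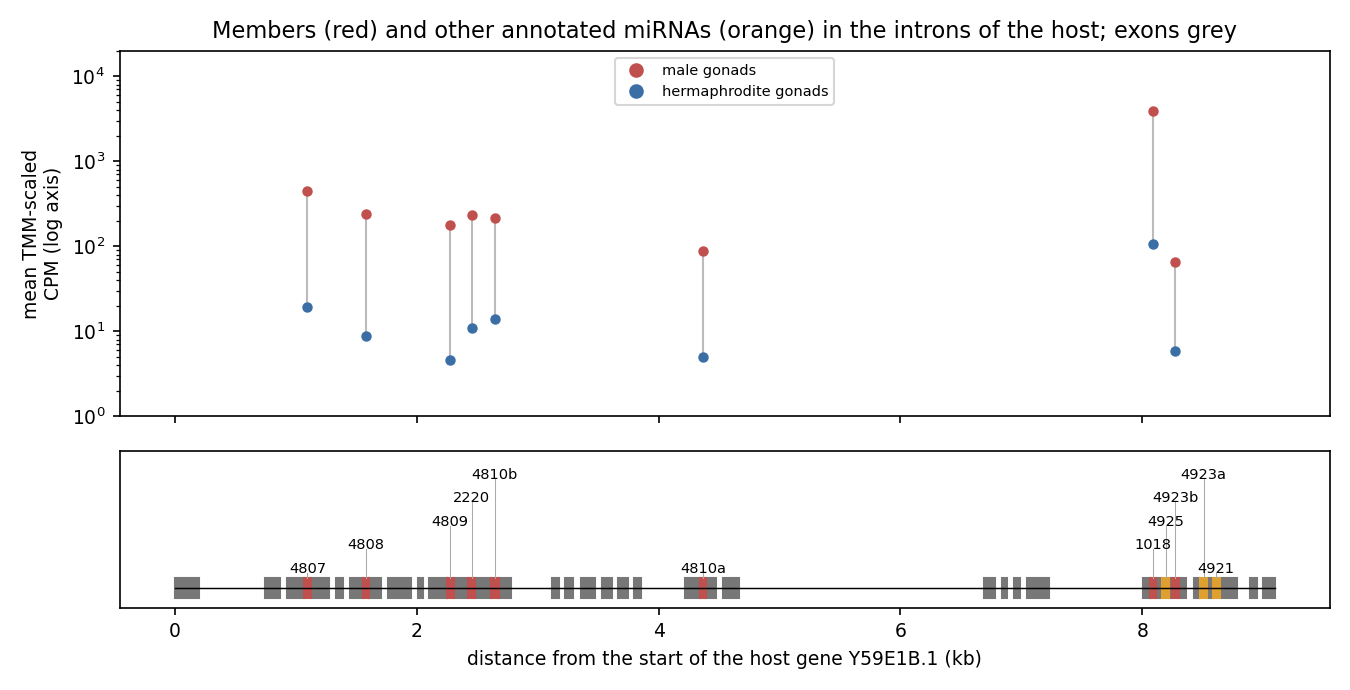
The lower panel maps the exons of the host gene (grey), the 8 members (red) and the other 3 annotated miRNAs in its introns (orange) by distance from the start of the host in kb. The upper panel gives the mean TMM-scaled CPM of each member, on a log axis, in male (red) and hermaphrodite (blue) gonads, 3 libraries each; cel-mir-1018, near the far end of the host, has the highest mean in both sexes.

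Of the 34 introns of the host, 22 were 56 to 61 bases long, the range of the hairpins in it, and 11 of these are annotated as miRNA genes. Besides the 8 members they are cel-mir-4925 in intron 28, cel-mir-4923a in intron 31 and cel-mir-4921 in intron 32, all annotated with an arm that ends at the last base of the intron. These neighbours had very few reads and none passed the filter on low counts. For cel-mir-4925 there were 9, 7 and 0 counts in male replicates 1 to 3, and 0, 0 and 1 in hermaphrodite replicates 1 to 3. For cel-mir-4923a there were 4, 4 and 1 counts in the male libraries and 0 in each hermaphrodite library, and cel-mir-4921 was listed at 0 in all 6. The introns on either side of cel-mir-4925 are cel-mir-1018 and cel-mir-4923b, and the hairpins are 56, 59 and 59 bases long in that order. In male replicate 1 these adjacent introns had 4306 counts for cel-mir-1018, 9 for cel-mir-4925 and 65 for cel-mir-4923b.

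The male libraries held 245399 to 597166 miRNA counts and the hermaphrodite libraries 2268159 to 2621478, so depth differed with sex. A limit of 3 counts, which a count of 0 allows, was 5.02 to 12.2 CPM (counts scaled to a common library total) in male and 1.14 to 1.32 CPM in hermaphrodite libraries. Such limits, and all intervals below, cover counting error only. Male replicate 3 stood apart from the other male libraries on the second principal component (8.07% of the variance), while the first (88.7%) separated the sexes. As a check of the tissue, the oocyte and embryo family mir-35 to mir-42 took 0.0550% to 0.0638% of male counts, with mir-41 at 0, and 18.1% to 19.2% of hermaphrodite counts. Of the somatic markers, the intestinal mir-60 took 0.0269% to 0.207% of male and 0.0248% to 0.0433% of hermaphrodite counts, and the muscle mir-1 took 0.0407% to 0.177% of male and 0.0957% to 0.161% of hermaphrodite counts, so that both overlapped between the sexes. The glial and hypodermal mir-228 took 1.18% to 1.96% of male and 0.291% to 0.366% of hermaphrodite counts, and the neuronal lsy-6 at most 0.00454% of male and 0.000458% of hermaphrodite counts. The sum of mir-241, mir-84, mir-48, let-7 and lin-4, which are known from somatic tissue, was 7.98% to 8.40% of male and 2.39% to 2.95% of hermaphrodite counts, and mir-84 was listed at 0 in all 6 libraries. As shares, mir-228, lsy-6 and that sum were higher in every male library, but shares are not scaled between libraries. On the scaled levels used below (trimmed mean of M values, TMM), the log2 fold changes, male over hermaphrodite, were 1.22 for mir-228, 1.5 for lsy-6 and 1.30 for lin-4, which the fit across all miRNAs called higher, and -1.16 for mir-1, which it called lower. Those of mir-60 (0.93), mir-48 (0.78), mir-241 (0.65) and let-7 (0.13) were not called, and mir-60 and let-7 overlapped between the sexes. The part of these markers in the differences below was not tested.

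The cluster as a whole took a far larger share of the counts in male than in hermaphrodite libraries. The sum of the 8 members was 5893, 4414 and 942 counts in male replicates 1 to 3, and 354, 255 and 279 counts in hermaphrodite replicates 1 to 3. As shares of all miRNA counts these were 0.987% (95% Wilson interval 0.962% to 1.01%), 1.00% (0.973% to 1.03%) and 0.384% (0.360% to 0.409%) in the male libraries, and 0.0135% (0.0122% to 0.0150%), 0.0109% (0.00963% to 0.0123%) and 0.0123% (0.0109% to 0.0138%) in the hermaphrodite libraries. The sexes did not overlap, and male replicate 3 lay well below the other male libraries but far above every hermaphrodite library. The mean share was 0.791% ± 0.353 in male and 0.0122% ± 0.0013 in hermaphrodite gonads (SD, n = 3 each), a ratio of 64.7, and without male replicate 3 the male mean was 0.995%.

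Levels were also put on the TMM scale, which sets library sizes so that most miRNAs do not shift between libraries. In TMM-scaled CPM the sum was 6916, 6174 and 3135 in the male libraries, and 192, 194 and 138 in the hermaphrodite libraries. The lowest male library was 16.1-fold above the highest hermaphrodite library. The ratio of mean scaled CPM, male over hermaphrodite, was 31.0. A separate fit, with the 8 rows replaced by their sum and TMM recomputed, gave a log2 fold change of 5.18 (SE 0.40). That value is therefore not on the same scale as the levels above or the fold changes of single members below. In these bulk libraries, a larger number of cells that make the miRNAs and more RNA per cell cannot be told apart.

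Most of the reads of the cluster came from cel-mir-1018. It had 4306, 3234 and 679 counts in male replicates 1 to 3, and 222, 144 and 182 counts in hermaphrodite replicates 1 to 3. In TMM-scaled CPM these were 5054, 4524 and 2260 in male, and 120, 110 and 89.8 in hermaphrodite gonads. Its levels were close together in the first male libraries and lower in male replicate 3, with no overlap between the sexes, and its log2 fold change was 5.21 (SE 0.48). By count, cel-mir-1018 ranked 19th, 19th and 23rd of the 253 miRNAs in the male libraries and 62nd in each hermaphrodite library.

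The first 3 members along the host, cel-mir-4807, cel-mir-4808 and cel-mir-4809, were less abundant. The counts of cel-mir-4807 were 402, 327 and 119 in the male libraries and 44, 31 and 20 in the hermaphrodite libraries. On the TMM scale they were 472, 457 and 396 CPM in male and 23.8, 23.6 and 9.87 CPM in hermaphrodite gonads, a log2 fold change of 4.53 (SE 0.52). This was the member with the smallest relative spread among male libraries, with a coefficient of variation of 9.10%. For cel-mir-4808 the counts were 294, 177 and 37 in male and 8, 23 and 9 in hermaphrodite libraries, and the scaled levels 345, 248 and 123 CPM in male and 4.33, 17.5 and 4.44 CPM in hermaphrodite libraries. Hermaphrodite replicate 2 was thus the high one for cel-mir-4808, and the log2 fold change was 4.81 (SE 0.60). For cel-mir-4809 the counts were 187, 125 and 43 in male and 7, 11 and 3 in hermaphrodite libraries, and the scaled levels 219, 175 and 143 CPM in male and 3.79, 8.38 and 1.48 CPM in hermaphrodite libraries. Its log2 fold change, 5.34 (SE 0.66), was the largest point estimate of the 8, although its hermaphrodite values rest on the fewest reads and 1 library was at the limit of 3 counts.

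The pair cel-mir-2220 and cel-mir-4810b, in introns 11 and 12, had a different spread. The counts of cel-mir-2220 were 256, 255 and 14 in male replicates 1 to 3, and 28, 7 and 24 in hermaphrodite replicates 1 to 3. In scaled CPM they were 300.5, 357 and 46.6 in male and 15.2, 5.34 and 11.8 in hermaphrodite gonads. The counts of cel-mir-4810b were 289, 183 and 15 in male and 25, 20 and 26 in hermaphrodite libraries, which gave 339, 256 and 49.9 scaled CPM in male and 13.5, 15.2 and 12.8 scaled CPM in hermaphrodite libraries. Both were far lower in male replicate 3 than in the other male libraries, and there they were still 3.07-fold and 3.28-fold above the highest hermaphrodite library. Their log2 fold changes were 4.43 (SE 0.60) for cel-mir-2220 and 3.97 (SE 0.58) for cel-mir-4810b. As a ratio of mean scaled CPM, male over hermaphrodite, cel-mir-2220 stood at 21.8 with all male libraries and 30.5 without male replicate 3, and cel-mir-4810b at 15.5 and 21.5.

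The least abundant members in male gonads were cel-mir-4810a and cel-mir-4923b. The counts of cel-mir-4810a were 94, 71 and 16 in male and 10, 10 and 4 in hermaphrodite libraries, or 110.3, 99.3 and 53.3 scaled CPM in male and 5.41, 7.62 and 1.97 scaled CPM in hermaphrodite libraries. The counts of cel-mir-4923b were 65, 42 and 19 in male and 10, 9 and 11 in hermaphrodite libraries, or 76.3, 58.7 and 63.2 scaled CPM in male and 5.41, 6.86 and 5.43 scaled CPM in hermaphrodite libraries. The sexes did not overlap for either, and cel-mir-4923b, unlike cel-mir-4810a, was about level across the male libraries. The log2 fold changes were 4.17 (SE 0.64) and, for cel-mir-4923b, 3.48 (SE 0.63), the smallest of the cluster. The lettered names mark members of similar sequence (cel-mir-4810a with cel-mir-4810b, and cel-mir-4923b with the neighbour cel-mir-4923a). How reads that match several hairpins were counted is not given in the sources used here, so their separate values are uncertain. Summed, cel-mir-4810a and cel-mir-4810b had a log2 fold change of 4.04 (SE 0.54).

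**Figure D2:**
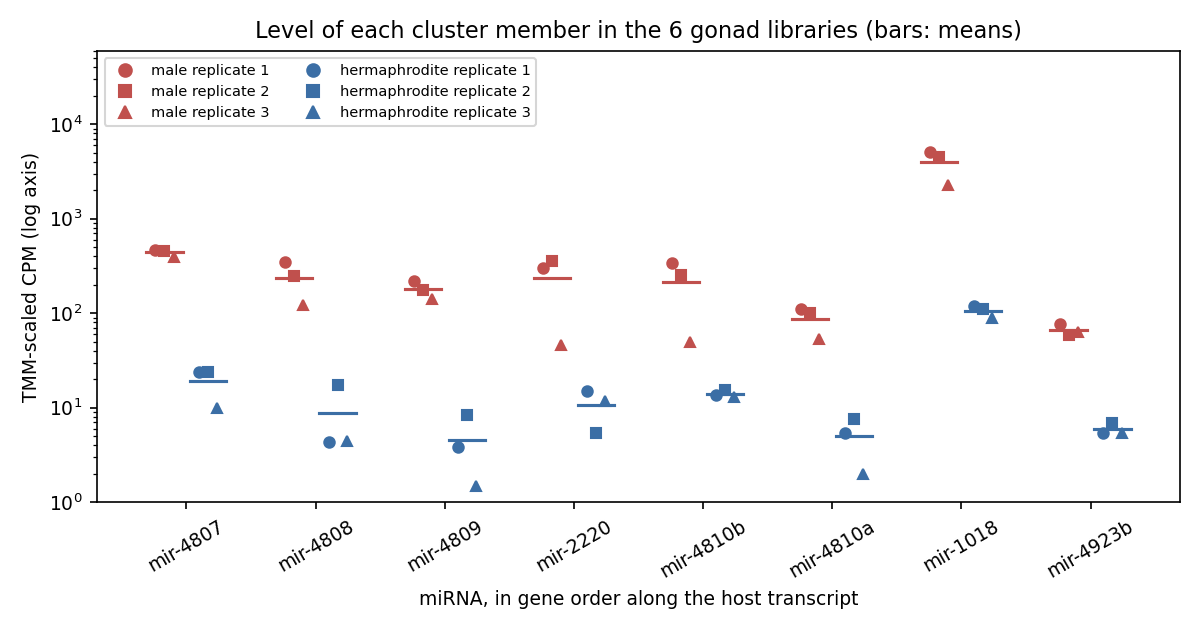
TMM-scaled CPM of each member on a log axis, in gene order along the host, for the 3 male (red) and 3 hermaphrodite (blue) libraries; symbols mark the replicate and bars the mean of each sex. All 3 male points of each member lie above all 3 hermaphrodite points, and male replicate 3 (triangles) is lowest for cel-mir-2220 and cel-mir-4810b, at 46.6 and 49.9 CPM.

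The order of the members was clear at the top and resolved only in part below it. Mean levels in male gonads were 3946 ± 1484 scaled CPM for cel-mir-1018, 442 ± 40.2 for cel-mir-4807, 239 ± 111 for cel-mir-4808, 234.6 ± 165 for cel-mir-2220, 215 ± 149 for cel-mir-4810b, 179 ± 38.4 for cel-mir-4809, 87.6 ± 30.3 for cel-mir-4810a and 66.1 ± 9.11 for cel-mir-4923b (SD, n = 3 each). The lowest male value of cel-mir-1018 was above every male value of cel-mir-4807, whose lowest value was in turn above every value of the members below it. From cel-mir-4808 to cel-mir-4809 the ranges overlapped, as did those of cel-mir-4810a and cel-mir-4923b. Every male value of cel-mir-4808 and cel-mir-4809 was above every male value of cel-mir-4810a and cel-mir-4923b. The male ranges of cel-mir-2220 and cel-mir-4810b overlapped with those of cel-mir-4810a and cel-mir-4923b. In hermaphrodite gonads the means were 107 ± 15.4 for cel-mir-1018, 19.1 ± 8.0 for cel-mir-4807, 13.9 ± 1.24 for cel-mir-4810b, 10.8 ± 5.0 for cel-mir-2220, 8.77 ± 7.59 for cel-mir-4808, 5.90 ± 0.83 for cel-mir-4923b, 5.0 ± 2.85 for cel-mir-4810a and 4.55 ± 3.51 for cel-mir-4809 scaled CPM (SD, n = 3 each). There cel-mir-1018 alone stood clear of its neighbour in the order. The hairpins differ in length by at most 5 bases, and dividing counts by hairpin length moved the mean male share of cel-mir-1018 within the cluster to 73.9%, against 72.8% without it.

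Shares within the cluster do not depend on the scaling between libraries. The share of cel-mir-1018 was 72.8% ± 0.64 of cluster counts in male and 61.5% ± 4.51 in hermaphrodite gonads (SD, n = 3 each). Its ratio to the sum of the other 7 members was 2.71, 2.74 and 2.58 in male replicates 1 to 3, and 1.68, 1.30 and 1.88 in hermaphrodite replicates 1 to 3. The male ratio was thus nearly the same in all 3 libraries, also in male replicate 3, where the cluster as a whole was low. It is a ratio to a sum, and the shares of single smaller members did shift in male replicate 3, as given below. In the other direction, cel-mir-4810b took 3.55% ± 1.74 of male and 8.07% ± 1.15 of hermaphrodite cluster counts, and cel-mir-4923b took 1.36% ± 0.58 of male and 3.43% ± 0.57 of hermaphrodite cluster counts (SD, n = 3 each). The lowest hermaphrodite share of cel-mir-4810b, 7.06% (95% Wilson interval 4.83% to 10.2%), exceeded the highest male share of 4.90% (4.38% to 5.49%), with intervals that overlapped. The differences in share between the sexes are the same contrast by which the members were picked and were not tested.

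**Figure D3:**
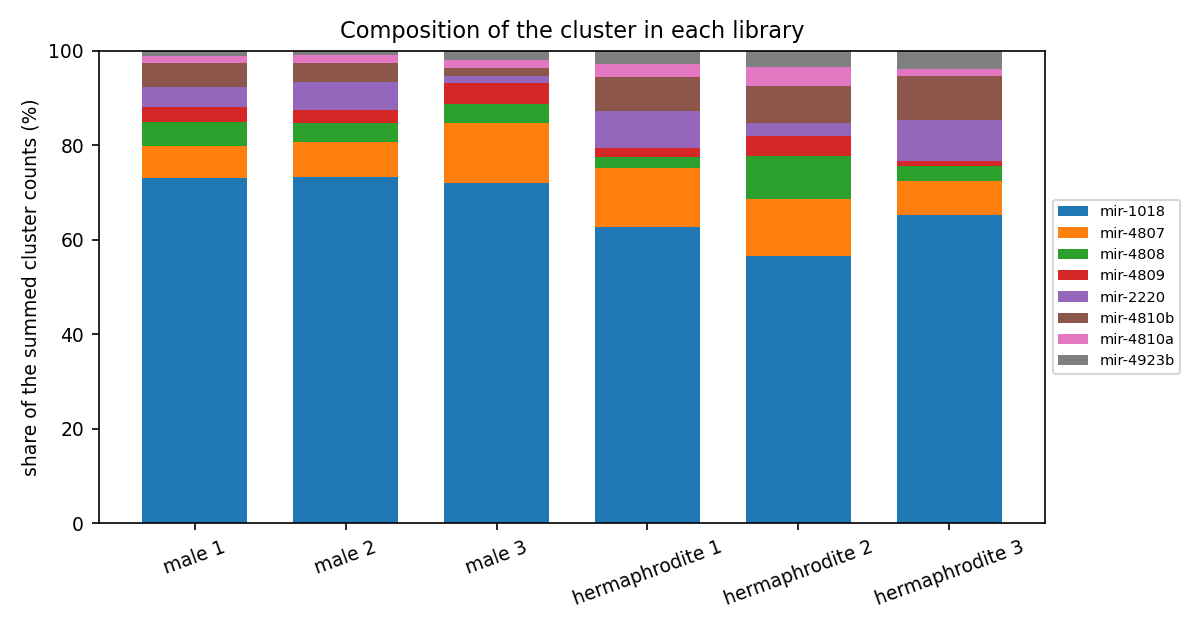
Each bar splits the summed counts of the 8 members in 1 library into the share of each member in percent, male libraries left and hermaphrodite libraries right. The share of cel-mir-1018 is between 72.1% and 73.3% in the male libraries, and cel-mir-2220 and cel-mir-4810b are thin in male replicate 3, at 1.49% and 1.59%.

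Within the cluster, male replicate 3 changed the proportions of the smaller members. The share of cel-mir-2220 was 4.34% (95% Wilson interval 3.85% to 4.90%) and 5.78% (5.13% to 6.50%) in male replicates 1 and 2, and 1.49% (0.887% to 2.48%) in replicate 3. That of cel-mir-4810b was 4.90% (4.38% to 5.49%), 4.15% (3.60% to 4.77%) and 1.59% (0.967% to 2.61%). For both, the interval in replicate 3 lay wholly below those of the other male libraries. The share of cel-mir-4807 was higher there, at 12.6% (10.7% to 14.9%), and averaged 7.11% in male replicates 1 and 2. The intron between cel-mir-4809 and cel-mir-4810b holds cel-mir-2220, and cel-mir-4809 itself did not follow them, with 4.56% (3.41% to 6.09%) in replicate 3 and a mean of 3.00% in the others.

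Co-variation of the members among the male libraries followed these groups. As deviations from the male mean of log2 scaled CPM, cel-mir-1018 stood at 0.44, 0.28 and -0.72 in replicates 1 to 3, and cel-mir-4810a at 0.39, 0.24 and -0.64. Of the 28 pairs of members these had the smallest root mean square difference over the 3 libraries, at 0.06. Next were cel-mir-1018 with cel-mir-4808 and cel-mir-4807 with cel-mir-4923b, both at 0.15. In male replicate 3 only 16 counts stood behind cel-mir-4810a and 19 behind cel-mir-4923b, so the order of these close pairs is not read. In replicate 3 the deviation was -1.85 for cel-mir-2220 and -1.68 for cel-mir-4810b, and -0.15 for cel-mir-4807 and -0.05 for cel-mir-4923b. The pair cel-mir-2220 and cel-mir-4810b was at 0.29 in male and 0.62 in hermaphrodite libraries, and several other pairs were closer in male libraries. The least alike pair in male libraries was cel-mir-2220 with cel-mir-4923b, at 1.29. The hermaphrodite libraries, with far fewer counts, gave another order. There cel-mir-1018 with cel-mir-4810a was at 0.43, and the most alike pair was cel-mir-4810b with cel-mir-4923b, at 0.047 in hermaphrodite libraries and 1.15 in male libraries. Along the host, cel-mir-1018 and cel-mir-4810a are 3663 bases apart, and no link between likeness and distance is read. With 3 libraries no correlation is given, and the pattern rests mainly on replicate 3.

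**Figure D4:**
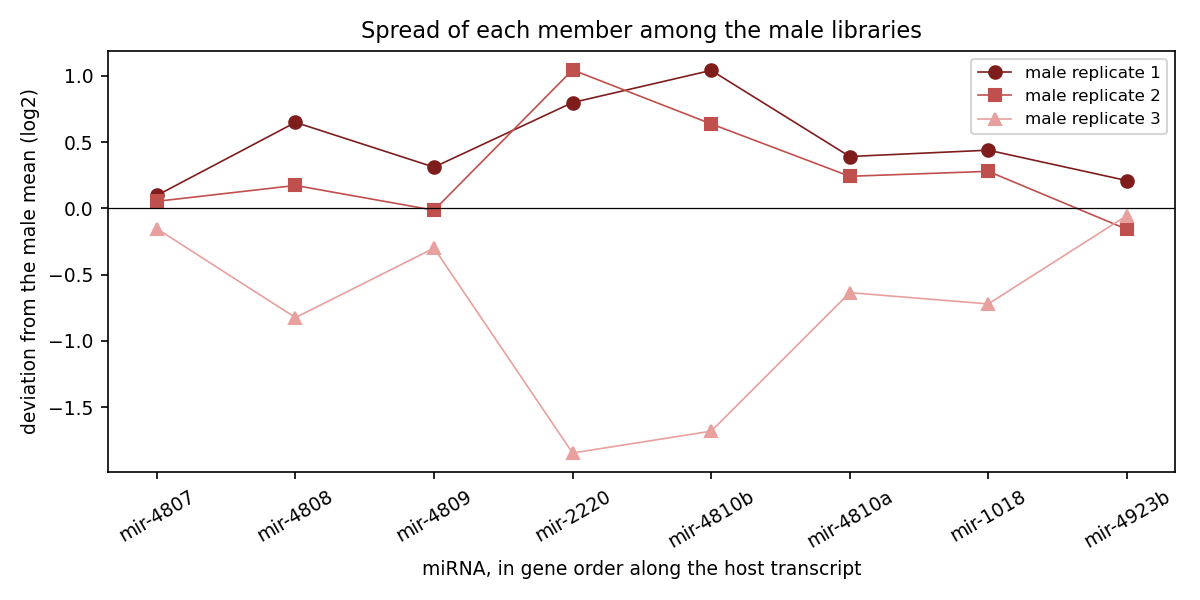
Deviation of each member from its mean over the 3 male libraries, in log2 scaled CPM, with members in gene order along the host; each line is 1 male library. Replicate 3 lies lowest for all members but cel-mir-4923b, and deepest for cel-mir-2220 and cel-mir-4810b, at -1.85 and -1.68.

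Some miRNAs outside the cluster were also low in male replicate 3. Its ratio to the mean of male replicates 1 and 2, in scaled CPM, was 0.472 for cel-mir-1018, 0.142 for cel-mir-2220, 0.168 for cel-mir-4810b and 0.937 for cel-mir-4923b, with a median of 0.937 over the 123 tested miRNAs that have a value. Of these 123, 8 had a lower ratio than cel-mir-2220, and 9, among them cel-mir-2220 itself, a lower one than cel-mir-4810b. The intestinal mir-60 took 0.0269% of counts in male replicate 3, and 0.207% and 0.153% in male replicates 1 and 2. The muscle mir-1 took 0.0407%, against 0.177% and 0.157%, whereas mir-228 was higher, at 1.96% against 1.18% and 1.41%. The part of such cells in the low values of replicate 3 was not tested.

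Set against all miRNAs, the cluster lay at the male end. The fit across the whole table (edgeR's quasi-likelihood test, Benjamini-Hochberg adjusted p under 0.05) tested 124 miRNAs and called 38 of them, 30.6%, as higher and 31, 25.0%, as lower in male gonads. All 8 members were tested and all 8 were among those called higher. Every male library was above every hermaphrodite library for all 8 and for 38.7% of the tested miRNAs. As this contrast picked the members, nothing is read from these counts. The median log2 fold change was 4.48 over the members, from 3.48 to 5.34, and 0.15 over all tested miRNAs. The scaling moved the last value, by 1.03 with library totals and by -0.49 with TMM computed without the mir-35 family, and with it the share of calls that were higher in male gonads, which was 55.1% with TMM, 77.5% with library totals and 43.8% without the mir-35 family. The fit of the summed cluster recomputed the TMM factors, so its fold change on that scale is not set against these medians. With library totals, which use no such factor, the summed cluster was 4.84 above the median of all miRNAs.

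Other miRNA genes on the same chromosome were counted as well. Of 62 other X-linked miRNAs in the files, 32 were tested, of which 8 were called higher and 10 lower in male gonads and 14 were not called, beside 30.6% called higher and 25.0% called lower of all tested miRNAs. These counts lie near the overall shares. Their median log2 fold change was -0.12, beside 0.15 over all tested miRNAs. The members were picked for high values, and the highest of the 32 was 3.21 for cel-mir-1819 (SE 0.62), which was named after its value was seen. Of the other miRNAs in the count files, 10 fill an intron exactly in hosts other than Y59E1B.1, a list made after the files were seen. Of these 10, 7 were listed at 0 in every library, cel-mir-4924 and cel-mir-4926 had at most 1 count in a library, and only cel-mir-4816, in the gene T09B4.2, was tested. Whether the zeros come from how reads were counted was not tested, so they are not read as absence. It had 36, 16 and 4 counts in the male libraries and 237, 156 and 163 in the hermaphrodite libraries, and was called lower in males (log2 fold change -2.0, SE 0.58).

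**Figure D5:**
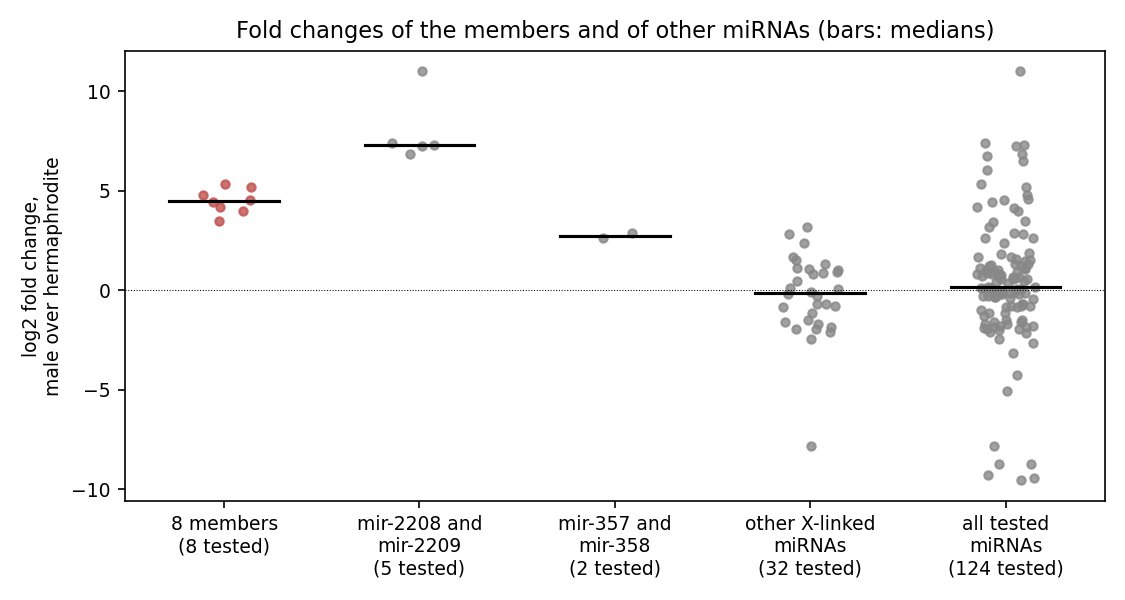
Log2 fold change, male over hermaphrodite gonads, of the 8 members (red) and, in grey, of the mir-2208 and mir-2209 genes, mir-357 with mir-358, other X-linked miRNAs and all tested miRNAs; each point is a miRNA and bars are medians. The members lie between 3.48 and 5.34, and the medians of the other X-linked and of all tested miRNAs are -0.12 and 0.15.

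Other clustered miRNAs, also known from earlier values to be higher in male gonads, are set beside these, and the differences in size were not tested. The mir-2208 and mir-2209 genes on chromosome IV were all above the members in point estimate. They ran from 6.87 (SE 0.82) for cel-mir-2209b to 11.02 (SE 0.62) for cel-mir-2208b. Only cel-mir-2209a, at 7.31 (SE 0.46), was well counted in hermaphrodite libraries, with 1109, 1164 and 1074 counts. The others had at most 10 counts in any hermaphrodite library, so their estimates are uncertain. On chromosome V, cel-mir-357 and cel-mir-358 were below the members, at 2.86 (SE 0.59) and 2.62 (SE 0.63). Among the male libraries they did not all share the low replicate 3 of the cluster. In scaled CPM, cel-mir-2208b stood at 7270, 7068 and 7769 in male replicates 1 to 3, and at 5.41, 2.29 and 2.47 in hermaphrodite replicates 1 to 3. For cel-mir-357 the levels were 72.8, 47.6 and 203 scaled CPM in male and 15.2, 13.0 and 14.8 scaled CPM in hermaphrodite libraries. Male replicate 3 was the highest for both, and also for cel-mir-2208a, cel-mir-2209c and cel-mir-358. It was the lowest for cel-mir-2209a, with 121654, 112931 and 85875 scaled CPM in male replicates 1 to 3. It was also the lowest for cel-mir-2209b, with 97.4, 89.5 and 59.9 scaled CPM in the same order.

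Likeness to the summed cluster was measured as the root mean square difference of centred log2 scaled CPM over all 6 libraries, for 116 miRNAs. The levels of the sum carried the TMM factors of its own fit, and those of the miRNAs the factors of the main fit. These values thus mix different scalings, and the order of close ones, such as cel-mir-58c and cel-mir-1822, is not read. The 5 smallest values were 0.51 for cel-mir-2209b, 0.75 for cel-mir-58c, 0.77 for cel-mir-1822, 0.85 for cel-mir-2208a and 1.05 for cel-mir-2209c. The hermaphrodite counts were 0, 3 and 0 for cel-mir-2209b, 5, 2 and 0 for cel-mir-2208a and 9, 5 and 2 for cel-mir-2209c. At such counts the prior count of 2 added before the logarithm largely sets the hermaphrodite level, so no likeness is read from the places of these 3. For comparison the members themselves lay between 0.08 for cel-mir-1018 and 1.04 for cel-mir-4923b from the sum that they are part of. The levels of cel-mir-1822, on chromosome II, were 119, 102 and 107 scaled CPM in male and 7.58, 8.38 and 2.96 scaled CPM in hermaphrodite libraries. It was about level across the male libraries, unlike the sum of the cluster. Over the male libraries alone the closest were cel-mir-1817 (0.02), cel-mir-250 (0.09) and cel-mir-4937 (0.09). All of cel-mir-1817, cel-mir-250 and cel-mir-4937 were low in male replicate 3 as the cluster was. Their log2 fold changes between the sexes, -0.22, -0.28 and 0.04 in that order, were not called. The levels of cel-mir-250, for example, were 10631, 9327 and 4151 scaled CPM in male and 8783, 11460 and 9031 scaled CPM in hermaphrodite libraries.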

How the data were processed

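The authors deposited whole-number read counts for 253 miRNA genes in each of 6 libraries, with no normalization. They also deposited a table of normalized values, a signal here, which equals those counts divided by 1 median-of-ratios size factor per library (0.317 to 1.74). Bowtie2, HTSeq and DESeq2 are named in the submitters' processing notes, without roles or versions, and the file names give ce10 and miRBase 22. Trimming and the handling of reads that match several hairpins are not given in the sources used here. Per the labels, total RNA came from a DirectZol microprep kit and libraries from a TruSeq small RNA kit.

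From the counts, edgeR 4.0.16 in R 4.3.3 was run on all libraries: filterByExpr (minimum count 10, 129 miRNAs left out), TMM, robust dispersions, and a quasi-likelihood F-test of sex alone, Benjamini-Hochberg adjusted at 0.05, two-sided. Each SE was taken as the fold change (log2) over the root of its F statistic. The sum was fitted in place of the 8 rows, with TMM factors recomputed on that table. Log2 levels used a prior count of 2, and Wilson intervals (95%) came from scipy 1.17.1. The biological coefficient of variation was 0.373. The labels call the libraries separate samples without naming cultures, so calls measure the spread between these samples. All same-sex pairs of libraries differed beyond sampling noise (the least chi-square was 2683, 122 degrees of freedom). The fit was tested on simulated data, drawn with its own dispersions and with no outlying library. That test cannot speak for a library such as male replicate 3.

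The members and lists were chosen with earlier results of these data known. Named besides the members were the miRNAs closest to the sum (5 over all libraries, 3 over male libraries, among those averaging 10 or more scaled CPM in one sex), the mir-2208, mir-2209, mir-357 and mir-358 genes, X-linked miRNAs within 10 kb of a member, and tissue markers; shared seeds were not used here. The list of intron-filling miRNAs was made after the data were seen. Of 253 miRNAs, 250 were matched to the annotation by name. Alternatives were other scalings, DESeq2 1.42.0, limma 3.58.1 on the authors' normalized values, other filters, a block for the replicate number, libraries left out singly, other totals, and cel-mir-4810a with cel-mir-4810b summed; shares per base of hairpin were added after the data were seen.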

Additional observations from a re-analysis of the deposited data

How the results depend on the processing

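The members were picked for being higher in male gonads in these libraries, so their sign and calls under other settings say nothing of stability and are not counted here. The log2 fold change of the summed cluster, 5.18, ranged from 4.53 to 6.01 over 16 settings. It moved by more than the spread between replicates (0.47) with library totals (6.01) and without male replicate 1 (4.64). It also did so with limma on the authors' normalized values, at a pseudocount of 1 (4.53) or 0.1 (4.54). With single libraries left out it ran from 4.64 to 5.32, the latter without hermaphrodite replicate 1. In that setting the highest member fold change was 5.09, for cel-mir-4809. The sum and the members were thus on different scales, as TMM was recomputed for each TMM fit of the sum. The part of this rescaling in the range was not tested. The number of miRNAs called higher in male gonads, 38, was 69 with library totals, and that called lower, 31, was 20. With each library left out the number called higher ranged from 23 without hermaphrodite replicate 3 to 43 without male replicate 3, and was 24 without hermaphrodite replicate 2. The share of the cluster in hermaphrodite counts, 0.0122%, was 0.0150% with the mir-35 family and 0.0163% with mir-82 left out of the totals. In each of these cases the cause was not tested, except that the last shares rise because the totals are smaller. Same-numbered libraries of the sexes did not deviate together (correlations over 124 miRNAs of -0.12, -0.05 and -0.27), so the numbers were not taken as pairs. With the replicate block, 31 miRNAs were called higher and 27 lower, and the summed cluster was at 5.11. Low male depth limits the smaller members, as 14 to 19 counts stood behind 4 of them in male replicate 3.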
